A study of Homo sapiens with 3 samples.

Results

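To describe how the nuclear receptor family was expressed in H128 cells with and without knockdown of ESRRG, the receptor genes were looked up by gene symbol in the gene table of the RNA-seq experiment. Of 46 human receptor genes named by the rule, 42 were listed among the 17448 genes of the table, and 4 were not analysed here. H128 is an established human small cell lung cancer (SCLC) line, grown in RPMI1640 medium with 10% fetal bovine serum, so that the medium held whatever hormones and lipids the serum carried. The cells were transfected for 48 h with a control siRNA (siCont) or with 1 of 2 siRNAs against ESRRG, the gene encoding the receptor ERRγ, in the libraries labelled siERRG2 and siERRG3. Each condition was 1 library, all 3 from the same line, so the differences below have no replicate check, no p-value is given, and a difference between libraries cannot be told apart from a difference between cultures.

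Nuclear receptors are transcription factors that share a zinc finger DNA-binding domain and a ligand-binding domain, and many of them switch genes on or off when a steroid, retinoid, thyroid hormone, fatty acid or oxysterol binds. The steroid receptors act mostly as homodimers, whereas the receptors for retinoic acid, thyroid hormone, vitamin D, oxysterols and fatty acids pair with a retinoid X receptor (RXR). The estrogen-related receptors (ERRs) have no known natural hormone, bind an extended half-site as monomers or dimers, and are best known for driving genes of mitochondrial energy metabolism with the coactivators of the PGC-1 family.

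The table held an estimated read count and a length-scaled expression value per gene and library. The counts, rounded to whole numbers, summed to between 19861937 and 20016780 per library, and the scaling factors between libraries lay between 0.994 and 1.003. A count of 0 allowed a level of up to 0.150 to 0.151 CPM (counts scaled to library size). All 6 neuroendocrine markers examined, among them CHGA and INSM1, were at 1 FPKM or more, the length-scaled value, in at least 1 library, most abundantly UCHL1 at 696 to 1006 FPKM. INSM1, a neuroendocrine transcription factor, was at 183.42, 93.27 and 160.95 FPKM in siCont, siERRG2 and siERRG3, so that it was lowest in siERRG2. Of the markers of other cell types, 4 of 5 leukocyte genes were listed and summed to at most 4.05 FPKM. The 5 fibroblast genes summed to 22.8, 32.4 and 25.9 FPKM in siCont, siERRG2 and siERRG3, most of it COL1A2, with DCN and PDGFRA near 0. The 4 endothelial genes summed to 17.9, 19.8 and 7.25 FPKM, nearly all of it CDH5, while VWF and KDR had at most 1 count. The part of these marker differences in the receptor results was not tested.

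Of the 42 receptor genes, 32 had at least 10 counts in at least 1 library and were kept for the comparisons, as were 14031 genes in all. The remaining 10 receptor genes had at most 6 counts in any library. They were ESRRB, the third ERR gene; PGR, the progesterone receptor; NR1H4, the bile acid receptor FXR; the hepatocyte nuclear factors HNF4A and HNF4G; the tailless-type receptors NR2E1 and NR2E3; NR5A1 and NR5A2, known for steroidogenesis and for liver and pluripotency genes; and NR0B2, a corepressor-like receptor that lacks a DNA-binding domain. At 3 counts or fewer in every library there were 6 of them, a level at or under the floor of this depth, and no fold change is given for any of the 10.

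Levels were compared between genes as FPKM, the deposited value that is scaled for transcript length. ESRRA, which encodes ERRα, stood first in siCont at 25.99 FPKM, with a 95% counting interval of 24.5 to 27.5. RXRG followed at 23.29 FPKM and NR2F6, a COUP-TF-type repressor, at 18.30 FPKM, and each of these was above its next neighbour beyond counting error. THRA, the thyroid hormone receptor α gene, was at 15.27 FPKM, NR2F2 at 14.46, RXRB at 13.62, NR2F1 at 13.43 and RXRA at 13.20, and no neighbours within this group of 5 differed beyond counting error. The next group began with NR1H2, the oxysterol receptor LXRβ, at 9.92 FPKM and ended with NR3C1, the glucocorticoid receptor, at 8.45 FPKM, again with no neighbours that differed. ESRRG itself ranked 15th at 7.41 FPKM, a level above that of 48.4% of the kept genes. NR1D1 at 6.79 FPKM did not differ from ESRRG beyond counting error, nor NR2C2 at 6.40 FPKM from NR1D1. Only neighbours were compared, so these groups are not sets of equal level. The intervals of THRA (14.2 to 16.4) and RXRA (12.5 to 13.9) did not overlap. Nor did those of ESRRG (6.91 to 7.94) and NR2C2 (6.02 to 6.79).

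Thus 17 receptor genes were above 5 FPKM in siCont, 8 lay above 1 and up to 5 FPKM, and 7 of those kept were at 1 FPKM or less. The middle group ran from NR3C2, the mineralocorticoid receptor, at 3.89 FPKM to NR1I3, the xenobiotic receptor CAR, at 1.24 FPKM. The low group held PPARA and PPARG, fatty acid receptors, ESR1 and ESR2, the estrogen receptors, NR4A3, RORA and VDR, the vitamin D receptor, which was last at 0.17 FPKM. In the whole order, 9 of 31 neighbouring pairs differed beyond counting error. The median of the kept receptor genes was 6.60 FPKM, beside 8.02 FPKM for all kept genes.

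Each ratio below carries a 95% interval from the exact binomial method of Clopper and Pearson, computed on the counts with the library sizes scaled. Counting error is all it covers, and it sets library against library rather than condition against condition, and "beyond counting error" below means that the interval leaves out 1. Log2 fold changes are differences of log2 CPM with a prior count of 2, which draws those of low genes toward 0. Both ESRRG libraries were set against the same siCont library, so the values in siERRG2 and siERRG3 are not independent of each other, and they are given side by side.

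The counts of several receptor genes were not whole numbers, as happens where a counting method divides reads between genes. Of the 32 kept receptor genes, 13 had whole counts in every library to within 0.015, beside 45.4% of all kept genes. For 6 receptor genes, the estimated count and that of a gene whose extent overlaps in the table added up to a whole number in all 3 libraries. These were THRA with NR1D1, which lie tail to tail on chromosome 17, ESRRA with TRMT112, RXRB with SLC39A7, NR1H3 with ACP2, and NR1I3 with TOMM40L. The source of the other fractional counts was not traced. For the pairs that matter below the sum is given beside the value, since the division of shared reads may affect each partner. How many reads were shared is not known here.

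Knockdown was read first from the targeted gene. ESRRG (gene 2104, chr1:216503246-217137755, GRCh38) was covered by 806 reads in siCont, against 211 in siERRG2 and 230 in siERRG3, each count being whole. The log2 fold change to siCont was -1.94 in siERRG2, for which the ratio had an interval from 0.221 to 0.302, and -1.82 in siERRG3, where it ran from 0.241 to 0.325. Both ESRRG libraries lay far below siCont, and they did not differ from each other beyond counting error, with a log2 fold change of siERRG3 to siERRG2 of 0.12 and an interval of the ratio of 0.896 to 1.31.

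ESRRA, the closest relative of ESRRG with appreciable reads, stood at 1184, 1270 and 1169 counts (here and below in the order siCont, siERRG2, siERRG3). Its log2 fold changes to siCont were 0.08 and -0.04, and both intervals of the ratio, 0.979 to 1.15 and 0.895 to 1.05, held 1. ESRRA was thus within counting error of siCont in each ESRRG library, although the sum with TRMT112, a methyltransferase cofactor gene, gave 3588, 3441 and 4775 counts, with ratios of 0.948 (0.905 to 0.994) and 1.31 (1.25 to 1.37). TRMT112 alone stood at 2404, 2171 and 3606 counts, so the higher sum in siERRG3 lay in the reads given to TRMT112. Summed over ESRRA, ESRRB and ESRRG, the ERR genes had 1994, 1483 and 1402 counts, and their share of all receptor FPKM was 14.3% in siCont, 13.7% in siERRG2 and 11.9% in siERRG3.

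**Figure D1:**
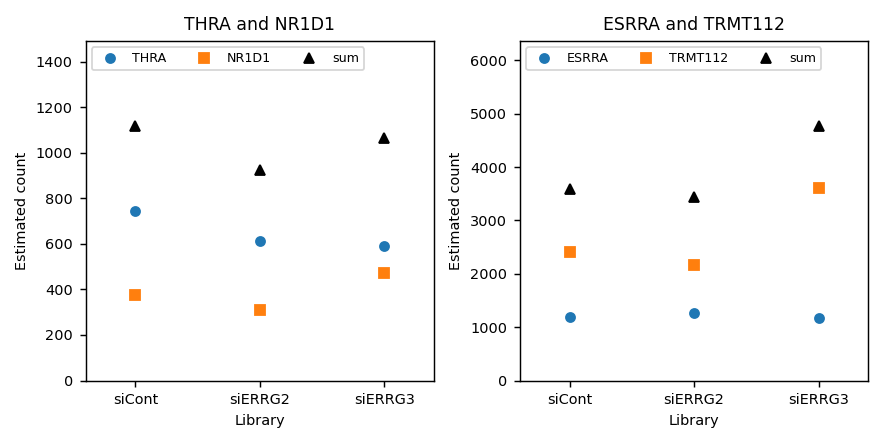
Estimated counts of THRA and NR1D1 (left) and of ESRRA and TRMT112 (right) in each library, with their sum, which is a whole number in all 3 libraries. The sum of THRA and NR1D1 is 1119, 924 and 1064, and that of ESRRA and TRMT112 is 3588, 3441 and 4775.

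ERRs bind the sequence TCAAGGTCA, an AAGGTCA core with a T and a C in front, and the shorter core is also part of the element of the NR4A receptors. Exact matches on either strand were counted in the RefSeq promoters of GRCh38.p14, 250 bases before and 50 after each start, in which 41 of the 46 receptor genes had 96 promoters. The longer motif was in 0 of the 96 and in 0.353% of 35116 promoters of all genes, and the shorter in 6 of the 96, or 6.25%, and in 3.92% of all. The genes with the shorter motif were ESRRG, PPARG, NR2E1 and ESR2. Overlapping PPARG promoters held the same match, at base -15 or -25 by promoter, so the 6 are not all separate sites. The windows of ESRRG, the targeted gene, and of PPARG are shown because they are the kept receptor genes with the core before the start, with the match in capitals.
ESRRG, chr1:217077017-217077083, minus strand, match from base -61: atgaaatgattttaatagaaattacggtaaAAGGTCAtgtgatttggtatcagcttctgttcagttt
PPARG, chr3:12287153-12287219, plus strand, match from base -185: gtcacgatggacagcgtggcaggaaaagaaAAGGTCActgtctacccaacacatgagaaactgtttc
PPARG, chr3:12289015-12289069, plus strand, match from base -25: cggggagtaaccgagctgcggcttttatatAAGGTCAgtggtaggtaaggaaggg
The ESRRG match was in 1 of its 8 listed promoters, and binding was not measured here. In the deposited annotation, the gene sets named for the ERRα element held 7 of the 32 kept receptor genes (21.9%), among them ESRRG, ESRRA, THRA and NR4A1, and 6.41% of all kept genes.

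Against this, the family as a whole was compared with siCont. In siERRG2, 11 of the 32 kept receptor genes (34.4%) were at least 1.2-fold lower than siCont, beside 19.2% of all kept genes, and 5 (15.6%) were at least 1.2-fold higher, beside 16.4% of all. Those lower were ESRRG, RXRA, RXRG, NR1D1, NR1D2, THRA, RARB, RARG, PPARA, PPARG and ESR2, and those higher were NR2F2, NR4A2, NR4A3, PPARD and VDR. By counting error, 9 (28.1%) were lower, beside 22.4% of all genes, and 6 (18.8%) were higher, beside 21.7% of all. The median log2 fold change of the kept receptor genes was -0.13, beside -0.00 over all kept genes. The shares of lower genes and the medians, here and for siERRG3 below, include ESRRG, the target of both siRNAs.

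In siERRG3, 6 receptor genes (18.8%) were at least 1.2-fold lower, beside 25.1% of all kept genes, and 5 (15.6%) were higher, beside 23.2% of all. Those lower were ESRRG, NR1D2, THRA, PPARA, RXRA and NR2C2, and those higher were RARA, NR1D1, NR2F6, NR4A1 and NR4A3. By counting error, 7 (21.9%) were lower and 7 (21.9%) higher, beside 28.5% and 27.1% of all genes. The median was 0.00, as it was, at -0.00, over all kept genes. The receptor genes were thus no more often away from siCont than genes at large in this library. Summed over the 42 listed genes, the receptors had 15858, 14488 and 15188 counts, with ratios to siCont of 0.903 (0.883 to 0.924) and 0.942 (0.921 to 0.963). These sums include ESRRG, the targeted gene, at 806, 211 and 230 counts, so part of each difference is the knockdown itself. In siERRG3 the fall of ESRRG makes up most of the difference, so that ratio is not read as a change of the family. A sum without ESRRG is not given.

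**Figure D2:**
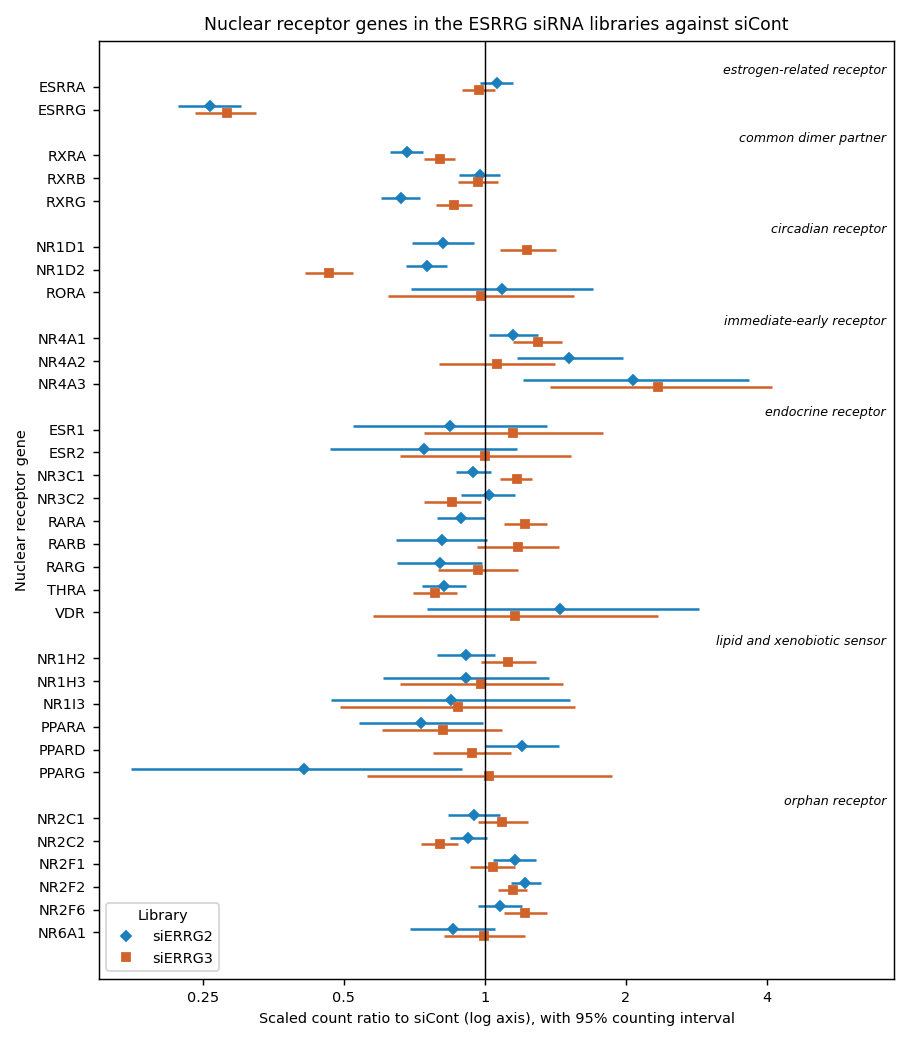
Scaled count ratio to siCont (log axis) with its 95% counting interval for the 32 kept receptor genes in siERRG2 and siERRG3, 1 library each, grouped by role. ESRRG lies at the far left in both, RXRA, RXRG and NR1D2 lie to the left of 1, and the NR4A genes lie to the right of 1, with an interval that holds 1 for NR4A2 in siERRG3.

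Among the dimer partners, RXRA and RXRG were lower than siCont beyond counting error in each ESRRG library, whereas RXRB was not. In siERRG3, RXRG did not reach 1.2-fold. RXRA (gene 6256, chr9:134326463-134479002) stood at 1468, 1011 and 1196 counts, and the log2 fold changes were -0.55 (ratio 0.628 to 0.738) and -0.32 (0.742 to 0.865). RXRG (gene 6258, chr1:165400922-165462416) stood at 1017, 680 and 889 counts, at -0.60 (0.599 to 0.729) and -0.22 (0.785 to 0.941). Both genes had whole counts, and both were lowest in siERRG2 and highest in siCont. RXRB had 762, 754 and 751 counts, and its log2 fold changes of -0.03 and -0.05 were within counting error, also after summing with SLC39A7, a zinc transporter gene, at 2596, 2738 and 2623 counts. The RXR genes together had 3247, 2445 and 2836 counts, with ratios of 0.744 (0.706 to 0.785) and 0.859 (0.816 to 0.904), and their share of all receptor FPKM was 21.3%, 17.5% and 18.9%. RXRA and RXRG exceeded their siERRG2 levels in siERRG3, by log2 fold changes of 0.23 (ratio 1.08 to 1.28) and 0.38 (1.18 to 1.44).

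The circadian receptors REV-ERBα (NR1D1) and REV-ERBβ (NR1D2) are repressors of the clock gene network. NR1D2 (gene 9975, chr3:23916804-24189838) stood at 882, 671 and 418 counts, all of them whole. Its log2 fold change was -0.41 (ratio 0.679 to 0.832) in siERRG2 and -1.10 (0.414 to 0.524) in siERRG3, and -0.69 (0.547 to 0.701) from siERRG2 to siERRG3. The gene was thus lower in each ESRRG library, and of the kept receptor genes only ESRRG had a smaller ratio to siCont in siERRG3. NR1D1 (gene 9572) had 376, 310 and 472 counts and was lower than siCont in siERRG2, at -0.29 (0.699 to 0.950), and higher in siERRG3, at 0.30 (1.08 to 1.42). RORA, an activator that competes for the same DNA sites, had 41, 45 and 41 counts and was within counting error.

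NR1D1 shares reads with THRA, so both genes are given with their sum. THRA (gene 7067) stood at 743, 614 and 592 counts, at -0.29 (ratio 0.733 to 0.910) and -0.35 (0.702 to 0.874). The sum of both genes was 1119, 924 and 1064 counts, at ratios to siCont of 0.816 (0.747 to 0.891) and 0.935 (0.859 to 1.02), so that the pair was lower in siERRG2 and within counting error in siERRG3. How many reads the genes share is not known here. THRA and NR1D1 lay on opposite sides of siCont in siERRG3, so their summed ratio lies between theirs however the reads were divided. The part of the division in either value was not tested.

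The NR4A receptors are immediate-early genes that are induced within a short time of a stimulus and act without a known hormone. NR4A1 stood at 513, 597 and 676 counts, at 0.20 (ratio 1.02 to 1.30) in siERRG2 and 0.37 (1.15 to 1.46) in siERRG3. NR4A3 was low, at 21, 44 and 50 counts, and gave 0.98 (1.21 to 3.67) and 1.15 (1.38 to 4.10). In both genes siCont was the lowest library. NR4A2 had 98, 150 and 106 counts and was higher than siCont in siERRG2, at 0.59 (1.17 to 1.97), whereas its value of 0.09 in siERRG3 was within counting error (0.800 to 1.41). The 3 genes together had 632, 791 and 832 counts, at ratios of 1.24 (1.11 to 1.38) and 1.29 (1.17 to 1.44).

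Among the orphan receptors, the COUP-TF genes, whose products mostly repress transcription and guide neural and vascular development, lay at or above siCont. NR2F2 (COUP-TFII) stood at 1373, 1701 and 1602 counts, at 0.29 (ratio 1.14 to 1.32) and 0.20 (1.07 to 1.23). NR2F1 (COUP-TFI) had 661, 775 and 697 counts, at 0.21 (1.04 to 1.29) and 0.05 (0.931 to 1.16), and NR2F6 had 654, 714 and 812 counts, at 0.11 (0.969 to 1.2) and 0.29 (1.1 to 1.36). Thus NR2F2 was beyond counting error in each ESRRG library, NR2F1 in siERRG2 and NR2F6 in siERRG3. Their summed share of receptor FPKM was 19.7%, 23.9% and 23.2%, beside the 21.3%, 17.5% and 18.9% of the RXR genes, so that the COUP-TF share lay below the RXR share in siCont and above it in the ESRRG libraries. Of the testicular receptors, NR2C2 had 1072, 999 and 874 counts and was lower in siERRG3, at -0.32 (0.732 to 0.877), while NR2C1 was within counting error of siCont in each library, as was NR6A1, the germ cell nuclear factor, at 200, 173 and 203 counts.

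Among the endocrine receptors, the retinoic acid receptors had unlike values in the ESRRG libraries. RARA had 599, 539 and 745 counts, at -0.17 (ratio 0.790 to 1.0) and 0.29 (1.1 to 1.36). RARB, itself a known retinoic acid target, had 182, 149 and 218 counts, at -0.30 (0.647 to 1.01) and 0.23 (0.963 to 1.44), and RARG had 206, 167 and 203 counts, at -0.32 (0.650 to 0.988) and -0.04 (0.794 to 1.18). All 3 were lowest in siERRG2. Their sum was 987, 855 and 1166 counts, below siCont in siERRG2 at a ratio of 0.856 (0.781 to 0.939) and above it in siERRG3 at 1.16 (1.07 to 1.27).

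Of the steroid receptors, NR3C1 had 1103, 1056 and 1308 counts and was higher than siCont in siERRG3, at 0.22 (ratio 1.08 to 1.26), but within counting error in siERRG2, at -0.08 (0.869 to 1.03). NR3C2 had 445, 458 and 386 counts and was lower in siERRG3, at -0.23 (0.742 to 0.980). The receptors for cortisol and for aldosterone thus lay on opposite sides of siCont in siERRG3, each by less than 1.2-fold. The estrogen receptors were low, with 41, 35 and 48 counts of ESR1 and 48, 36 and 49 of ESR2, and both were within counting error, as was VDR with 17, 25 and 20 counts.

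Among the lipid and xenobiotic sensors, PPARG stood at 24, 10 and 25 counts, with a log2 fold change of -1.13 in siERRG2 and a wide interval of the ratio of 0.176 to 0.894, and on the log2(FPKM + 0.1) scale the value was -0.42. PPARA had 104, 77 and 86 counts, at -0.44 (0.538 to 0.992) in siERRG2 and -0.29 (0.604 to 1.09) in siERRG3. PPARD, the most abundant of the PPAR genes, had 221, 269 and 211 counts and was higher in siERRG2, at 0.26 (1.0 to 1.44). The PPAR genes thus differed in direction in siERRG2, each with an interval that reached close to 1 or was wide. The count per FPKM of PPARA corresponded to a transcript length of 5.93 kb in siCont, 7.58 kb in siERRG2 and 5.75 kb in siERRG3, so its FPKM of 0.88, 0.51 and 0.75 carried a change in assumed length as well as in counts. NR1H2 had 412, 380 and 471 counts and was within counting error of siCont in each library, as were NR1H3 (LXRα) at 53, 49 and 53 counts and NR1I3 at 28, 24 and 25. Summed with ACP2, a lysosomal phosphatase gene, NR1H3 gave ratios of 1.26 (1.11 to 1.42) and 0.891 (0.779 to 1.02), and NR1I3 summed with TOMM40L gave 0.945 (0.875 to 1.02) and 0.818 (0.755 to 0.886). The sums thus lay beyond counting error in siERRG2 for the first pair and in siERRG3 for the second, with most of the reads given to the partner gene.

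The ESRRG libraries were also compared with each other, a comparison that does not use siCont and asks how alike the receptor genes were under different siRNAs against the same target. By counting error, 7 receptor genes (21.9%) were lower in siERRG3 than in siERRG2, beside 28.4% of all kept genes, and 11 (34.4%) were higher, beside 29.1% of all. In total 18 of 32 (56.2%) differed in either direction, beside 57.5% of all kept genes, while ESRRG did not. Those lower in siERRG3 were NR1D2, NR4A2, PPARD, NR3C2, NR2C2, NR2F1 and ESRRA. Those higher were PPARG, NR1D1, RARB, RARA, RXRG, NR1H2, NR3C1, RXRA, NR2C1, NR4A1 and NR2F6. The median log2 fold change was 0.16, beside 0.01 over all kept genes.

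RARA and RARB were among the genes that differed most between the ESRRG libraries, with log2 fold changes of siERRG3 to siERRG2 of 0.46 (ratio 1.23 to 1.54) and 0.54 (1.18 to 1.80). For NR1D1 the value was 0.60 (1.31 to 1.75), but the sum with THRA gave a ratio of 1.15 (1.05 to 1.25). For ESRRA the ratio of siERRG3 to siERRG2 was 0.916 (0.845 to 0.992), whereas the sum with TRMT112 gave 1.38 (1.32 to 1.44), in the opposite direction. PPARG gave 1.16 with the widest interval of the receptors that differed, 1.15 to 5.80. The difference in siRNA, in culture and in library cannot be told apart here.

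**Figure D3:**
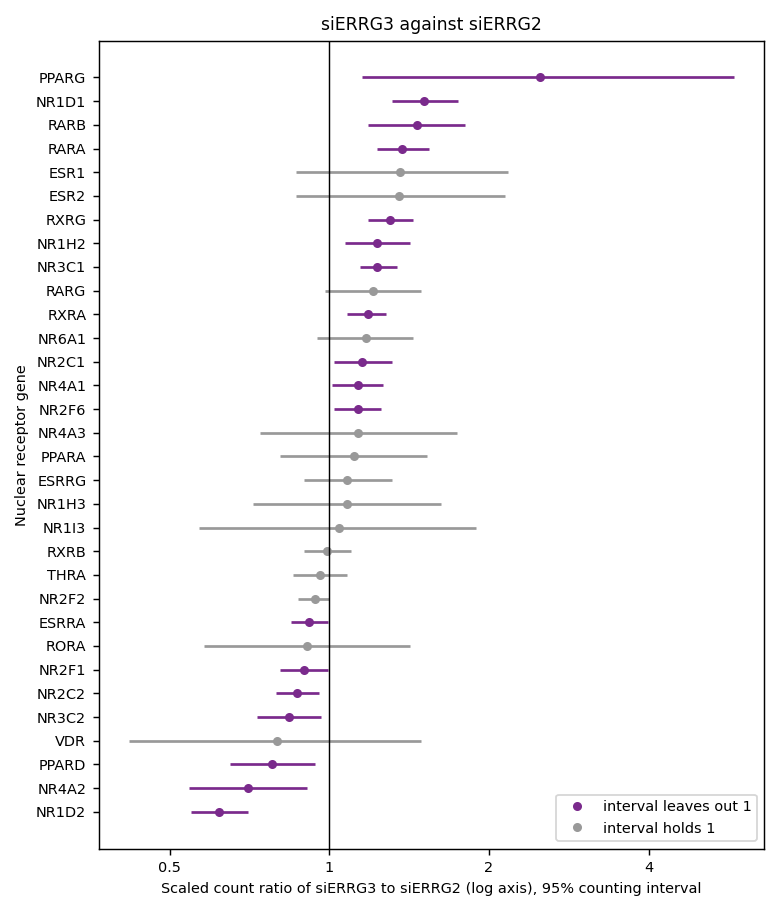
Scaled count ratio of siERRG3 to siERRG2 (log axis) with its 95% counting interval for the 32 kept receptor genes, 1 library each, in order of the ratio. The interval leaves out 1 for 18 genes, 7 to the left and 11 to the right, and ESRRG, the target of both siRNAs, is among those whose interval holds 1.

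Genes that work with the receptors were described from lists, by the number of genes at least 1.2-fold away from siCont and by the median, over those whose counts averaged 50 or more. This limit was chosen after seeing the data, since a few low genes had passed the limit of 10 counts through a single library. Of all genes above it, 15.5% were lower and 12.8% higher in siERRG2, and 24.3% were lower and 19.4% higher in siERRG3. Of the 13 coactivator genes, such as NCOA1 and PPARGC1A, 2 were lower and 1 higher in siERRG2, and 3 lower and 1 higher in siERRG3, with median log2 fold changes of -0.04 and -0.16. Of 8 corepressor genes, such as NCOR1, 0 were lower and 0 higher in siERRG2, at a median of -0.06, and 4 were lower and 1 higher in siERRG3, at -0.27. The medians of both coregulator lists were thus lower in siERRG3 than in siERRG2. Over all genes above the limit the medians were 0.00 in siERRG2 and -0.01 in siERRG3. Not every coregulator followed, as NCOA1 was at -0.72 and -0.16 and PPARGC1B at -0.37 and 0.04.

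Of the genes that supply or break down retinoid, thyroid, vitamin D and steroid ligands, 5 of 14 kept had such a mean, of which 1 was lower and 0 higher in siERRG2 and 2 lower and 1 higher in siERRG3, at medians of 0.06 and 0.03. Over all 14 the medians were -0.04 and 0.08. HSD11B2, which inactivates cortisol, was the one gene of this list that met the rule for naming, which asked for such a mean and a value beyond 1.2-fold and beyond counting error on the same side in each ESRRG library. It had 197, 107 and 157 counts, at -0.88 (ratio 0.420 to 0.683) and -0.35 (0.631 to 0.971), and siCont was the highest library.

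Of 15 clock genes, 1 was lower and 4 were higher in siERRG2, and 2 were lower and 6 higher in siERRG3, at medians of 0.01 and 0.09. CRY2, a repressor of the clock, had 311, 424 and 500 counts, at 0.43 (ratio 1.16 to 1.57) and 0.66 (1.37 to 1.83). PER1, likewise a repressor and also a glucocorticoid receptor target, had 288, 366 and 402 counts, at 0.33 (1.07 to 1.47) and 0.45 (1.18 to 1.60). BHLHE40, which represses clock-driven genes, had 428, 523 and 581 counts, at 0.27 (1.06 to 1.38) and 0.42 (1.18 to 1.52). These genes were named because they lay on the same side of siCont in each ESRRG library, and a link to the lower NR1D2 was not tested. Others of the list did not follow. ARNTL (0.05 and -0.08) and CLOCK (-0.01 and 0.09) were within counting error in each library. TEF was lower in siERRG2, at -0.30, and BHLHE41 in siERRG3, at -0.56.

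Of 9 immediate-early genes other than the NR4A genes, 1 was lower and 4 were higher in each ESRRG library, at medians of 0.14 and 0.15. JUND, a subunit of the AP-1 factor, had 4217, 6326 and 6031 counts, at 0.57 (ratio 1.43 to 1.54) and 0.49 (1.35 to 1.46), and ATF3, a stress-induced factor, had 271, 417 and 510 counts, at 0.60 (1.30 to 1.78) and 0.88 (1.59 to 2.15). JUND and ATF3 were named because they lay above siCont in each ESRRG library, so no likeness to NR4A1 and NR4A3 is read from them. Other genes of the list went elsewhere. EGR1 was lower in siERRG2, at -0.41, and MCL1 in siERRG3, at -0.27, and JUN was near siCont, at 0.07 and 0.06.

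Of 7 glucocorticoid receptor targets, 2 were lower and 3 higher in siERRG2 and 1 lower and 3 higher in siERRG3, at medians of 0.09 and 0.15. TSC22D3, which encodes the anti-inflammatory protein GILZ, had 304, 493 and 729 counts, at 0.68 (ratio 1.39 to 1.86) and 1.23 (2.06 to 2.70). KLF9, a transcription factor that is also a thyroid hormone target, had 610, 495 and 490 counts, at -0.32 (0.711 to 0.905) and -0.34 (0.700 to 0.891). The targets that met the naming rule thus lay on both sides of siCont.

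For the other target lists no gene met that rule. Of 5 liver X receptor targets, NR1H3 itself included, 1 was lower and 0 higher in siERRG2 and 1 lower and 1 higher in siERRG3, at medians of -0.22 and -0.08. Of the retinoic acid receptor targets, RARB itself included, 2 of 7 kept had such a mean, so nothing is read from that list, whose medians over all 7 were -0.30 and -0.16. Of 4 PPAR targets, 0 were lower and 1 higher in siERRG2 and 2 lower and 1 higher in siERRG3, at -0.03 and -0.20. These lists were short, and their medians are a description only.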

How the data were processed

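RNA-seq was performed on H128 cells in 3 libraries, 1 per condition. The paper's methods name BWA and Bowtie 2 and the build GRCh37/hg19. The submitters' processing notes name TopHat2, HTSeq, DESeq2 and the builds GRCh38, hg19 and hg38, and the table gives GRCh38 coordinates. The labels describe paired-end libraries and the methods single-end sequencing. In the deposited table of the authors, the estimated counts (expected counts) per gene are not normalized and not always whole, and those of some overlapping genes add up to whole numbers, as where reads are divided between genes. A second deposited value of the authors was taken as FPKM from its relation to the counts, since its unit is not named. The columns of log2 ratios and Poisson-test p-values of each ESRRG library against siCont were not used. Which ESRRG library received which of the siRNAs named in the paper is not settled by the labels.

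The expected counts were rounded. The filter asked for 10 counts or more in 1 or more libraries, and scaling was by TMM in edgeR 4.0.16 (R 4.3.3), and log2 CPM used a prior count of 2. Ratios carry 95% exact binomial intervals (SciPy 1.17.1), and fold calls were made at 1.2-fold. With 1 library per condition no test was made. In siERRG2 the relative width of the interval was smallest for NR2F2 (1.14 to 1.32) and largest for PPARG (0.176 to 0.894) among the kept receptor genes. The computation was tested on simulated data.

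The receptor genes and lists were chosen with earlier results of these data known. The genes named are the receptor genes; in each list, up to 4 genes per direction with a mean of at least 50 counts, at least 1.2-fold from siCont on the same side in each ESRRG library and beyond counting error; and genes overlapping a receptor gene. Alternatives were total counts, DESeq2 1.42.0 size factors, FPKM with a pseudocount of 0.1, a prior count of 0.5, other filters, 2-fold calls, 99% intervals and, chosen after seeing the data, sums of genes that share reads and, for the lists, a mean of at least 50 counts. Promoters are from RefSeq (GRCh38.p14). DNA-binding domains of the proteins were not analysed here.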

Additional observations from a re-analysis of the deposited data

Results flagged for a closer look

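NR1D1 stood out because it was at least 1.2-fold lower than siCont in siERRG2 and at least 1.2-fold higher in siERRG3, with a log2 fold change of siERRG3 to siERRG2 of 0.60. The difference was not tested, since each library is 1 sample. The same pattern was seen in 849 of 14031 kept genes (6.05%) and in 1 of the 32 kept receptor genes. Summed with THRA, with which it shares reads, the log2 fold changes to siCont were -0.29 and -0.10.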

How the results depend on the processing

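With calls at 2-fold in place of 1.2-fold, the receptor genes lower than siCont in siERRG2 numbered 2 instead of 11 and those higher 0 instead of 5, and in siERRG3 2 instead of 6 were lower and 1 instead of 5 higher. Without a filter on low counts, all 42 listed genes entered, and 13 were lower and 12 higher in siERRG2. In siERRG3, 8 were then lower and 8 higher. Among the 25 receptor genes whose counts averaged 50 or more, 9 were lower and 2 higher in siERRG2. Of all genes above that limit, 15.5% were lower and 12.8% higher there. In siERRG3, 6 of the 25 were lower and 4 higher, beside 24.3% and 19.4% of all. With 99% intervals, 4 instead of 7 receptor genes were lower in siERRG3 than in siERRG2 and 7 instead of 11 higher. These follow from stricter or looser limits. No share of all genes is given for the 2-fold, unfiltered or 99% settings, or for the FPKM setting below. The receptor genes were therefore not set against genes at large under those settings. Sums with an overlapping gene, chosen after seeing the data, hold all reads of both genes, so they are not values of the receptor gene alone. NR1D1 with THRA gave -0.10 in siERRG3, beside 0.30 for NR1D1 and -0.35 for THRA. ESRRA with TRMT112 gave -0.08 in siERRG2 and 0.39 in siERRG3, beside 0.08 and -0.04 for ESRRA. With FPKM, 8 receptor genes were lower and 4 higher in siERRG2 and 5 lower in siERRG3: RARB (-0.21), RARG (-0.25), ESR2 (-0.26) and NR2F2 (0.24) in siERRG2 and PPARA (-0.21) in siERRG3 no longer passed 1.2-fold, and PPARG in siERRG2 went from -1.13 to -0.42. Of 256 values of single receptor genes under other scalings, FPKM or prior count, 256 kept their direction where called and lay within the counting interval. The sum of NR1H3 with ACP2 gave 0.33 in siERRG2 and that of NR1I3 with TOMM40L -0.29 in siERRG3, with most reads given to the partner. No paired analysis was possible because each condition is 1 library. Levels from a length column were not run, since the table has none. Depth limits the 7 kept receptor genes with a mean under 50 counts.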
